A study of Mus musculus with 16 samples.

Results

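The 10 genes described here make the proteins that show peptides from inside a cell to CD8+ T lymphocytes on major histocompatibility complex (MHC) class I molecules. They were chosen by name, as 10 of the 31274 genes in the expression table: the heavy chains H2-K1 and H2-D1, their light chain B2m, the peptide pump subunits Tap1 and Tap2, the loading factor Tapbp, the inducible proteasome subunits Psmb8, Psmb9 and Psmb10, and the class I transactivator Nlrc5. All 10 had a mean FPKM (fragments per kilobase of transcript, scaled to the mapped fragments of the library) above 1 in at least 1 group and were tested. RNA-seq was carried out on seminal vesicles of C57BL/6 mice at week 5, with 4 samples in each of 4 groups. WT mice and αERKO mice (aERKO in the sample labels), in which Esr1, the gene for oestrogen receptor α, is disrupted in every tissue, received subcutaneous diethylstilbestrol (DES), a synthetic oestrogen, at 2 µg per pup per day from day 1 to day 5 of life, or corn oil alone. Groups are called WT-veh and WT-DES, or αERKO-veh and αERKO-DES, by genotype and exposure. The methods describe 3 pools of mice for WT-DES RNA and 4 single mice for each other group, whereas the labels list 4 WT-DES samples, so whether these 4 are independent is not known. WT and αERKO pups came from different breeding schemes, so genotype and litter of origin cannot be told apart.

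Class I molecules are assembled in the endoplasmic reticulum from a heavy chain, β2-microglobulin and a short peptide. The peptides are cut from cytosolic proteins by the proteasome, whose standard catalytic subunits can be replaced by the inducible ones to form the immunoproteasome, and are carried into the endoplasmic reticulum by the TAP pump, to which tapasin tethers the empty class I molecule. Interferon-γ is the best known inducer of the whole set, acting in part through IRF1 and NLRC5, and lymphocytes and macrophages express these genes at a higher level than most epithelia do.

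The disrupted gene was examined first as a check of the genotype labels. Esr1 measured 4.43, 4.55, 3.70 and 2.81 FPKM in WT-veh samples 1 to 4 and 8.74, 19.6, 13.0 and 15.7 FPKM in WT-DES samples 1 to 4. It lay between 1.30 and 1.75 FPKM in αERKO-veh and between 0.91 and 1.64 FPKM in αERKO-DES, below every WT sample. The seminal vesicle secretory genes Svs1, Svs2, Svs3a, Svs4, Svs5 and Svs6 summed to 41078 to 48226 FPKM per WT-veh sample but only to 2219 to 6947 FPKM after DES exposure of WT mice, and 6 of 6 were lower (5 of 6 after quantile normalization). The summed FPKM of all genes was lowest in WT-DES, at 375207 to 437619 against 590446 to 652708 for WT-veh, and αERKO libraries summed to 479045 to 558591 after vehicle and 531467 to 622477 after DES, so other scalings of the libraries were tried and the main calls that changed are given with the results.

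Of the 10 members, 7 lie on chromosome 17, B2m on chromosome 2, and Psmb10 and Nlrc5 on chromosome 8 (GENCODE annotation, GRCm38). Tap1 (chr17:34187553-34197225) and Psmb9 (chr17:34181987-34187764) are transcribed away from each other, and their annotated exons share 212 bases on opposite strands. Psmb8 (chr17:34197721-34201454) and Tap2 (chr17:34203527-34216321) follow Tap1 on the same strand. The heavy chain genes H2-K1 (chr17:33996017-34000347) and H2-D1 (chr17:35262730-35267499) lie near the ends of this stretch, with Tapbp (chr17:33915899-33929292) beside H2-K1. B2m lies at chr2:122147686-122153083, Psmb10 at chr8:105935735-105938444 and Nlrc5 at chr8:94434356-94527272. The strand setting of the libraries is not given in the sources used here, so reads from the shared Tap1 and Psmb9 exons cannot be assigned to either gene with certainty. Exons of Tap2, Tapbp, Psmb8 and Nlrc5 also overlap exons of antisense or neighbouring genes, by 78 to 904 bases. Class I heavy chain genes resemble each other closely, and 67 of the 1977 read-length windows along the longest H2-D1 transcript (3.39%) occur word for word in transcripts of other genes, whereas 0 of 1749 windows of H2-K1 and 0 of 735 windows of B2m do.

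Promoter windows of 300 bases, from 250 bases before to 50 bases after the start site, were found for 8 members in RefSeq (GRCm38.p6). Tap2 and Nlrc5 had no entry. The promoters of H2-K1, H2-D1 and B2m are shown because these genes encode both chains of the class I molecule, the promoter of Tap1 because it covers the start of Psmb9 as well, and that of Psmb8 as the gene downstream of Tap1. Each is printed 5′ to 3′ on the strand of its gene, with capitals at matches to any of 6 motifs searched on both strands, whose matches may overlap: the interferon response core with the spacing GAANNGAAA or GAAANNGAAA, the interferon-γ activated site TTCNNNGAA, the Y box CCAAT, the X2 or CRE core TGACG, and the NF-κB consensus.
H2-K1 (chr17:34000298-34000597, minus strand): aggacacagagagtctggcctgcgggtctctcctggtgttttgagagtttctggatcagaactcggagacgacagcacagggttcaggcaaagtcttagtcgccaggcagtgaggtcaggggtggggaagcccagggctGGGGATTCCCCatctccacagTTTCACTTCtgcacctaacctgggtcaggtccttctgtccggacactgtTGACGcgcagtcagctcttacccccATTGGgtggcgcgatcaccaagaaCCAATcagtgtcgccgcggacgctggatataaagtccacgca
H2-D1 (chr17:35262844-35263143, plus strand): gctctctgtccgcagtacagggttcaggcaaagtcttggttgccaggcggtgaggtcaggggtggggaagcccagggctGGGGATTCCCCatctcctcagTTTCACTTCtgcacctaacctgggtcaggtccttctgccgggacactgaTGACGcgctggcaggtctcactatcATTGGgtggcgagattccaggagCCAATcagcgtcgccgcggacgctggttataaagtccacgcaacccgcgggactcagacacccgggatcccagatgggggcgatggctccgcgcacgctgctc
B2m (chr2:122147437-122147736, plus strand): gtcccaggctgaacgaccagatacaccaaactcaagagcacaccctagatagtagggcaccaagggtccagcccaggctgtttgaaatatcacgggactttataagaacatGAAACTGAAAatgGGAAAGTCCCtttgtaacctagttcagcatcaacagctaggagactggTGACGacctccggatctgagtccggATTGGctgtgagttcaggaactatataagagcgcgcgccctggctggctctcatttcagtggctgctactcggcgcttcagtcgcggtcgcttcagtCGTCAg
Tap1 (chr17:34187306-34187605, plus strand): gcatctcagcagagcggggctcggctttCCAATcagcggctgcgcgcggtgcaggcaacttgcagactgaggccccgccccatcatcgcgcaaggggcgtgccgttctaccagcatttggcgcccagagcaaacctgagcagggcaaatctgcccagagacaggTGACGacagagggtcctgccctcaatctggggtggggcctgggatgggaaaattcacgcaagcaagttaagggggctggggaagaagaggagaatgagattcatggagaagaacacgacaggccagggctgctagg
Psmb8 (chr17:34197945-34198244, plus strand): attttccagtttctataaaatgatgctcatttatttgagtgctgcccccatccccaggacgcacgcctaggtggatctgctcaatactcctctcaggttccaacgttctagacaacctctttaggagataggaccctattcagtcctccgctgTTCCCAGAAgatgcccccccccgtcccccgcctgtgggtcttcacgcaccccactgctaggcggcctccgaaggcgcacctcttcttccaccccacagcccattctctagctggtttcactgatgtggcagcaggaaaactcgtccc
The windows of H2-K1 and H2-D1 hold the same series of motifs in the same order: an NF-κB match, an interferon response core (from position -90 to -82 in H2-K1 and from -150 to -142 in H2-D1, counted from the start site), a TGACG core and a pair of CCAAT boxes, the first on the opposite strand. B2m has the NF-κB, TGACG and CCAAT letters in the same order, and the wider interferon response core GAAANNGAAA from position -139 to -130, ahead of the NF-κB match. The Tap1 and Psmb9 start sites lie 226 bases apart, 275 bases of their windows are the same DNA, and a CCAAT box and a TGACG core lie between the starts. Psmb8 holds an interferon-γ activated site from position -97 to -89. Among the 8 members with a window, 2 held GAANNGAAA (7.52% of all 32851 RefSeq promoter windows did), 1 GAAANNGAAA (3.44%), 1 the interferon-γ activated site (8.3%), 6 a CCAAT box (37.4%), 5 a TGACG core (20.8%) and 3 the NF-κB consensus (4.51%). These matches describe letters only.

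Exposure of WT mice to DES was compared with vehicle to ask which members had a different level at week 5. Nlrc5, Tap1, Tap2, Psmb8, Psmb9 and Psmb10 were higher in WT-DES, by 1.93-fold for Tap2 up to 13.2-fold for Nlrc5, whereas B2m was 3.93-fold lower. The heavy chains H2-K1 and H2-D1 and the loading factor Tapbp had ratios of 1.22, 1.45 and 1.47, under the 1.5-fold threshold. Thus 7 of 10 members were called, with a limma adjusted p of at most 0.05 and group means at least 1.5-fold apart, against 52.7% of the 15988 genes tested (28.9% higher and 23.9% lower). The WT-DES and WT-veh samples did not overlap for 9 of 10 members, against 66.7% of all genes tested, so the count of members is read against a tissue in which most genes had a different level. The median difference was 0.94 on the log2(FPKM + 1) scale over the 10 members and -0.01 over all genes.

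**Figure D1:**
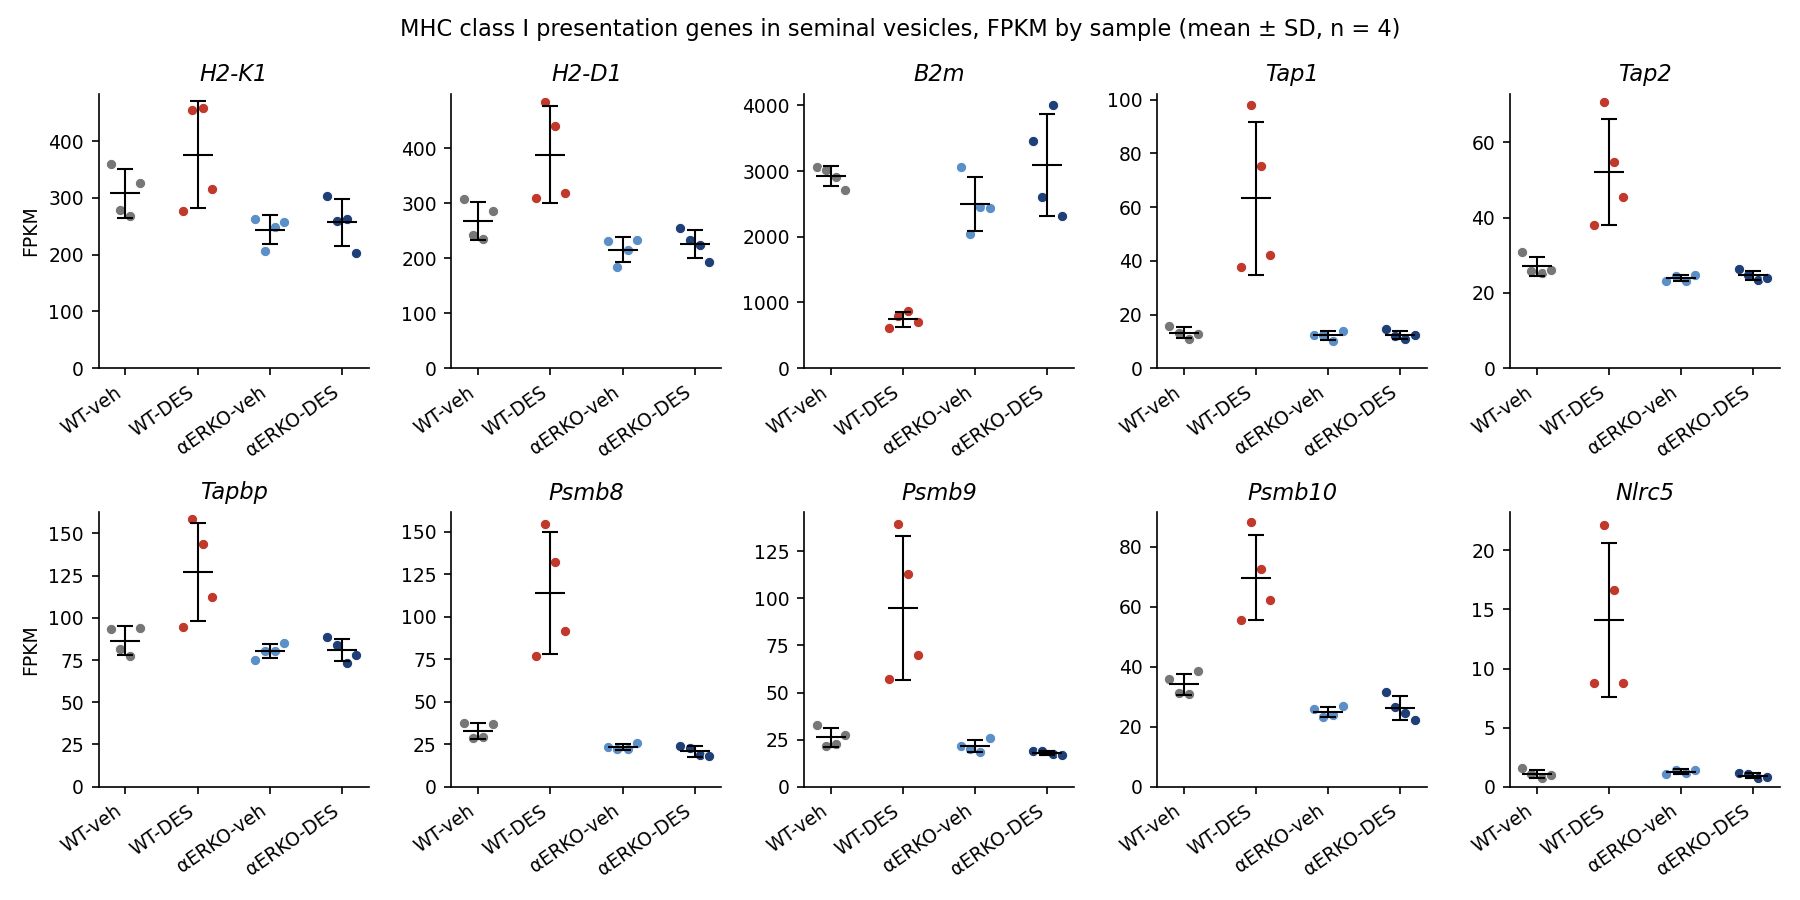
FPKM (linear axes from 0) of each of the 10 genes in each of the 16 samples, with points for samples and bars for the mean ± SD of 4 samples a group. The red WT-DES points lie above all others for Tap1, Tap2, Psmb8, Psmb9, Psmb10 and Nlrc5, and for B2m they lie between 605 and 872 FPKM, below all other groups.

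Nlrc5, a nuclear protein that switches on class I promoters, had the lowest level of the members and the largest ratio. It measured 1.56, 1.05, 0.71 and 0.96 FPKM in WT-veh samples 1 to 4 and 8.76, 22.2, 16.7 and 8.80 FPKM in WT-DES samples 1 to 4. Every WT-DES sample was above every WT-veh sample, with samples 2 and 3 well above the other pair (log2 difference 2.78, SE 0.23, adjusted p = 7.37e-08 in limma). In αERKO mice Nlrc5 was 1.11, 1.43, 1.12 and 1.44 FPKM after vehicle and 1.17, 1.08, 0.73 and 0.79 FPKM after DES, within or near the WT-veh range.

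The TAP pump carries peptides across the membrane of the endoplasmic reticulum as a pair of TAP1 and TAP2. Tap1 measured 15.9, 13.1, 11.0 and 12.8 FPKM in WT-veh and 37.6, 97.9, 75.4 and 42.1 FPKM in WT-DES samples 1 to 4. Tap2 measured 30.9, 25.9, 25.2 and 26.1 FPKM in WT-veh and 37.9, 70.6, 54.6 and 45.4 FPKM in WT-DES. Both genes were higher in all 4 WT-DES samples than in any WT-veh sample, again most in samples 2 and 3. The log2 difference was 2.08 (SE 0.23, adjusted p = 1.41e-06) for Tap1 and 0.89 (SE 0.13, adjusted p = 2.86e-05) for Tap2. In WT-veh the mean FPKM of Tap2 (27.0 ± 2.61, SD, n = 4) was above that of Tap1 (13.2 ± 2.02), with no overlap, whereas in WT-DES their ranges overlapped, at 52.1 ± 14.1 and 63.3 ± 28.6 FPKM.

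Psmb8, Psmb9 and Psmb10 encode the inducible catalytic subunits LMP7, LMP2 and MECL-1. Psmb8 measured 37.3, 28.5, 29.5 and 37.0 FPKM in WT-veh and 76.9, 154.8, 132.3 and 91.9 FPKM in WT-DES samples 1 to 4. Psmb9 measured 32.9, 21.7, 22.9 and 27.3 FPKM in WT-veh and 57.2, 139.8, 112.9 and 69.9 FPKM in WT-DES. Psmb10 measured 35.8, 31.3, 31.0 and 38.4 FPKM in WT-veh and 55.7, 88.3, 72.5 and 62.3 FPKM in WT-DES. The groups did not overlap for any of the 3 subunits, and WT-DES sample 2 was the highest and sample 1 the lowest for each. The log2 differences were 1.71 (SE 0.18, adjusted p = 7.05e-07), 1.75 (SE 0.22, adjusted p = 4.70e-06) and 0.99 (SE 0.13, adjusted p = 7.24e-06), or ratios of 3.45, 3.62 and 2.04.

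B2m encodes β2-microglobulin, the light chain that every class I heavy chain needs in order to fold. It was the most abundant member in every group and measured 3054, 3012, 2916 and 2707 FPKM in WT-veh against 605, 788, 872 and 706 FPKM in WT-DES samples 1 to 4. All 4 WT-DES samples lay below all 4 WT-veh samples (log2 difference -1.99, SE 0.20, adjusted p = 3.79e-07). Within each library B2m nevertheless stayed among the most abundant of the 15988 genes tested, at ranks 15 to 18 in WT-veh and 8 to 38 in WT-DES. The size of the fall depended on scaling, and the call was lost under 1 of the 4 scalings tried: the log2 difference was -1.47 after correction for transcript length, -1.55 after rescaling each library without the 20 most abundant genes, and -0.19 (adjusted p = 0.554) after quantile normalization.

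The heavy chains carry the peptide groove that T-cell receptors read. H2-K1 measured 359, 279, 268 and 326 FPKM in WT-veh and 276, 455, 459 and 315 FPKM in WT-DES samples 1 to 4. Only samples 2 and 3 of WT-DES exceeded all WT-veh samples, and the difference did not pass the test (log2 difference 0.26, 95% confidence interval -0.10 to 0.63, adjusted p = 0.175). H2-D1 measured 308, 242, 236 and 286 FPKM in WT-veh and 310, 485, 441 and 319 FPKM in WT-DES. These groups did not overlap, though their closest samples measured 308 and 310 FPKM, and the adjusted p was 0.00573 at a ratio of 1.45. Tapbp, whose product tapasin holds class I molecules at the TAP pump, measured 93.6, 81.5, 77.3 and 93.8 FPKM in WT-veh and 94.7, 158.4, 143.8 and 112.1 FPKM in WT-DES, with an adjusted p of 0.00194 at a ratio of 1.47. H2-D1 and Tapbp crossed the fold threshold after length correction (log2 differences of 0.72 and 0.59), after rescaling without the 20 most abundant genes (0.95 and 0.96) and after quantile normalization (1.49 and 1.17). H2-K1 was called under the last 2 of these, at 0.70 and 1.26. H2-D1 also crossed the threshold without WT-veh sample 1 or WT-DES sample 1 or 4 (0.59 to 0.62), and Tapbp without any 1 of these or WT-veh sample 4 (0.57 to 0.66).

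**Figure D2:**
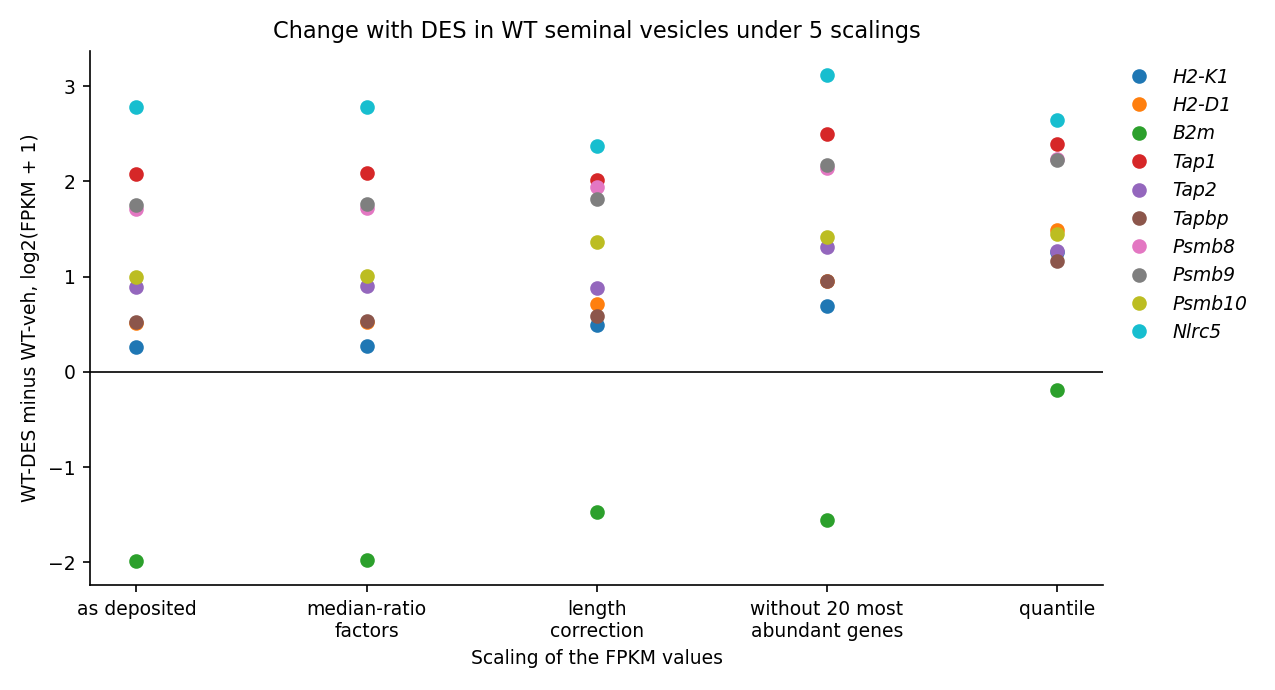
Difference between WT-DES and WT-veh in log2(FPKM + 1) for each of the 10 genes (vertical axis) under 5 scalings of the FPKM values (horizontal axis). The 9 genes other than B2m lie above 0 under all 5, and B2m lies between -1.99 and -1.47 under 4 of them and at -0.19 after quantile normalization.

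Under the scalings the calls thus split differently, with 6 members higher and 1 lower in the deposited values, 8 higher and 1 lower after length correction, and 9 higher and none lower after quantile normalization. Rescaling without the 20 most abundant genes shifted the median of all genes by 0.37 on the log2 scale, and all 10 members were then called, B2m as lower.

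The 2 chains of the class I molecule therefore changed in different proportion within the same libraries. The sum of H2-K1 and H2-D1 FPKM, divided by B2m FPKM, was 0.899 to 1.19 in the 4 WT-DES samples but 0.173 to 0.226 in WT-veh, and in αERKO mice it was 0.162 to 0.200 after vehicle and 0.121 to 0.190 after DES. This ratio does not depend on how a library is scaled by a single factor, but quantile normalization is no such scaling, and it gave log2 differences of 1.26 for H2-K1, 1.49 for H2-D1 and -0.19 for B2m, against 0.26, 0.52 and -1.99 in the deposited values. It was formed after the values had been seen and is given as a description.

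Each inducible subunit takes the place of 1 standard subunit in the proteasome, Psmb8 of Psmb5, Psmb9 of Psmb6 and Psmb10 of Psmb7, and the share of the inducible gene in the summed FPKM of its pair was compared between groups. In WT-veh the shares were 22.3% ± 2.77 for Psmb8, 10.8% ± 2.08 for Psmb9 and 17.0% ± 1.83 for Psmb10 (SD, n = 4). In WT-DES they were 68.7% ± 10.5, 47.4% ± 12.4 and 42.8% ± 7.24, so Psmb8 outweighed Psmb5 in all 4 samples (55.8% to 78.4%). The groups did not overlap for any pair, and each difference had an exact two-sided permutation p of 0.0286, the smallest that 70 arrangements of 4 against 4 samples allow (0.0476 after Benjamini-Hochberg adjustment over 15 tests). Without WT-veh sample 1 the adjusted exact permutation p of all 3 rose to 0.0536, with differences of 47.6, 37.6 and 26.4 points. Both sides of each pair contributed, since the standard subunits were lower in WT-DES, 3 of 3 called, against 23.9% of all genes called lower. The core subunits shared by both forms of the proteasome were lower too in the deposited values, 8 of 11 called (median difference -0.83). Psmb5 was at 115 ± 11.8 FPKM in WT-veh and 48.8 ± 9.01 in WT-DES (log2 difference -1.23, SE 0.13, adjusted p = 7.58e-07 in limma). The difference of Psmb6 was -1.11 but under the 1.5-fold threshold after quantile normalization (-0.41), and that of Psmb7 was -0.85 but under the threshold after quantile normalization (-0.20) and after rescaling without the 20 most abundant genes (-0.42), with an adjusted p under 0.05 in each case.

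**Figure D3:**
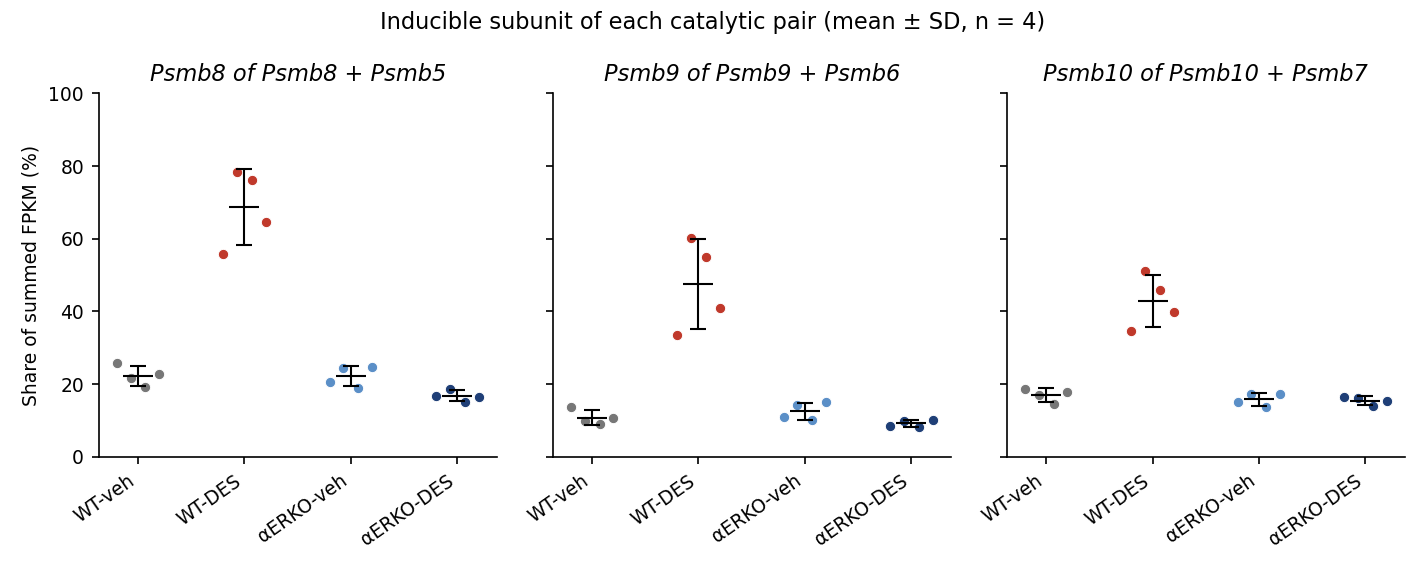
Share of the inducible subunit in the summed FPKM of its pair (vertical axes, percent from 0 to 100) in each of the 16 samples, with points for samples and bars for the mean ± SD of 4 samples a group. For all 3 pairs the WT-DES samples lie above the other 12 samples, and the αERKO-DES samples reach 15.0% to 18.7% for Psmb8.

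The same exposure was then examined in αERKO mice, to ask whether the members differed after DES when oestrogen receptor α was disrupted. Of the 10 members, 0 were called between αERKO-DES and αERKO-veh in limma, 0 had an unadjusted p under 0.05, and 1.49% of all genes were called in this comparison. The samples of the 2 groups overlapped for all 10 members, whereas 13.0% of all genes had no overlap. The log2 differences lay between -0.23 for Psmb9 and Nlrc5 and 0.29 for B2m, and the 95% confidence intervals reached from -0.73 (Nlrc5) to 0.71 (B2m), so changes of that size are not excluded.

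The individual αERKO values are given for an inducible subunit, a pump subunit and the light chain, all 3 called in WT mice. Psmb8 measured 23.6, 22.3, 21.98 and 25.8 FPKM after vehicle and 23.99, 22.6, 18.5 and 17.8 FPKM after DES, in samples 1 to 4. Tap1 measured 12.5, 12.3, 10.2 and 13.9 FPKM after vehicle and 14.5, 12.0, 11.0 and 12.2 FPKM after DES. B2m measured 3055, 2041, 2452 and 2445 FPKM after vehicle and 3460, 2598, 4009 and 2321 FPKM after DES. For all 3 genes the groups overlapped, and B2m had its widest spread in αERKO-DES, at 3097 ± 778 FPKM.

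The proteasome shares, which compare 2 genes within a library, did differ between the αERKO groups for 2 of the 3 pairs. Psmb8 took 20.7%, 24.4%, 18.9% and 24.6% of its pair after vehicle and 16.8%, 18.7%, 15.0% and 16.5% after DES. Psmb9 took 10.8%, 14.1%, 10.133% and 15.0% after vehicle and 8.52%, 9.77%, 8.19% and 10.127% after DES. In both cases the DES samples lay below the vehicle samples, for Psmb9 with the closest samples 10.127% and 10.133%, and the mean differences of -5.40 and -3.36 points had an exact permutation p of 0.0286 (adjusted 0.0476). Both calls were lost when any 1 of the 4 αERKO-DES samples was left out, with differences of -6.05 to -4.82 points for Psmb8 (adjusted exact permutation p = 0.107) and -3.69 to -3.04 points for Psmb9 (0.143 to 0.238). The share of Psmb10 differed by -0.39 points (exact permutation p = 0.743). The 2 called differences were opposite in sign to those in WT mice. The means of the standard subunits were higher after DES, with Psmb5 at 83.1 ± 11.3 FPKM after vehicle and 103 ± 12.0 after DES. Psmb6 was at 152 ± 23.9 and 180 ± 23.7 FPKM. Psmb8 and Psmb9 differed by -0.17 and -0.23 on the log2 scale, and none of these subunits was called on its own in limma. After DES exposure of αERKO mice 3 of 5 skeletal muscle, 2 of 4 adipose, 1 of 6 fibroblast, 1 of 5 endothelial and 1 of 5 anterior prostate markers were lower, against 1.41% of all genes, and their part was not tested.

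**Figure D4:**
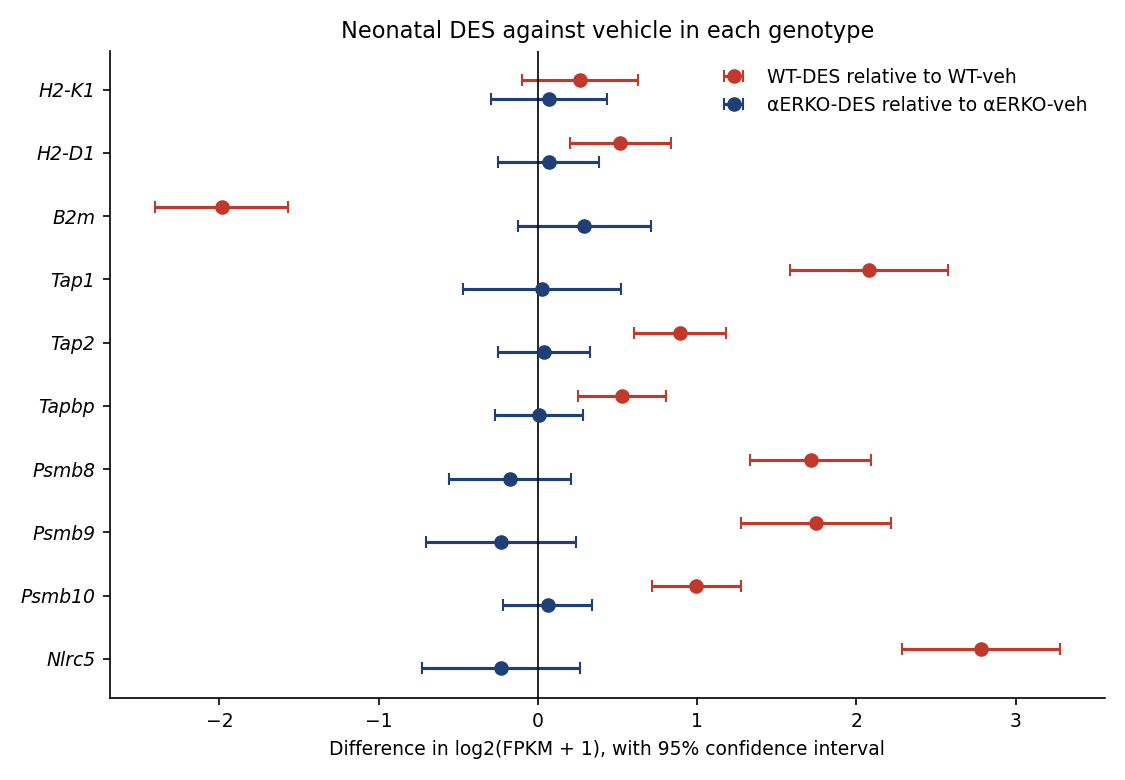
Difference between DES and vehicle in log2(FPKM + 1) (horizontal axis) for each of the 10 genes, with 95% confidence intervals from limma, in WT mice (red) and αERKO mice (blue), 4 samples a group. All 10 αERKO intervals include 0, whereas in WT mice only that of H2-K1 does.

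The difference between the genotypes was tested directly as the DES effect in WT minus that in αERKO. It was called in limma for 7 of 10 members, against 56.4% of all genes. The difference was positive for Nlrc5 (3.01 on the log2 scale, SE 0.33, adjusted p = 1.73e-06), Tap1 (2.05, SE 0.33, adjusted p = 6.19e-05), Psmb9 (1.98), Psmb8 (1.89), Psmb10 (0.93) and Tap2 (0.85), and negative for B2m (-2.28, SE 0.28, adjusted p = 4.72e-06). For H2-K1 it was 0.19 (95% confidence interval -0.32 to 0.71), for H2-D1 0.45 (-0.001 to 0.90) and for Tapbp 0.52 (0.13 to 0.91, adjusted p = 0.02), the last of these under the 1.5-fold threshold but past it without WT-DES sample 1 (0.65). After quantile normalization the difference for B2m was -0.15 (adjusted p = 0.747) and those for H2-K1, H2-D1 and Tapbp were called, at 1.41, 1.61 and 1.30. All 3 were also called after rescaling without the 20 most abundant genes (0.76, 1.01 and 1.08), and H2-D1 (0.71) and Tapbp (0.61) after length correction.

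Comparison of the DES-exposed groups of the 2 genotypes shares its samples with the comparisons above and gave 9 of 10 members called (53.4% of all genes) and 9 of 10 without overlap (66.5% of all genes). In αERKO-DES relative to WT-DES, Nlrc5 was 15.0-fold lower, Psmb8 5.50-fold, Psmb9 5.28-fold, Tap1 5.09-fold, Psmb10 2.66-fold, Tap2 2.12-fold, H2-D1 1.72-fold and Tapbp 1.57-fold lower, and B2m 4.17-fold higher. H2-D1 measured 256, 233, 224 and 193 FPKM in αERKO-DES, each below the lowest WT-DES sample. H2-K1 measured 304, 260, 262 and 203 FPKM, overlapped with WT-DES and had a ratio of 1.46 (adjusted p = 0.0115), and was called without WT-DES sample 1 or 4 or αERKO-DES sample 1 (-0.60 to -0.66), after quantile normalization (-1.40), after rescaling without the 20 most abundant genes (-0.91) and after length correction (-0.65). The call of Tapbp was lost when WT-DES sample 2 was left out (log2 difference -0.51), and that of B2m after quantile normalization (0.40, adjusted p = 0.207). Between these groups 6 of 6 leukocyte, 6 of 6 T cell, 5 of 5 macrophage, 6 of 6 fibroblast, 5 of 5 endothelial and 4 of 4 adipose markers were lower in αERKO-DES and 5 of 6 epithelial markers higher, and their part was not tested.

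Loss of the receptor alone was addressed by αERKO-veh relative to WT-veh, in which 0 of 10 members were called in limma, against 7.12% of all genes. At an unadjusted p under 0.05 there were 2, Psmb8 and Psmb10. Psmb10 was lower in all 4 αERKO-veh samples (25.8, 23.1, 23.8 and 26.8 FPKM), with an adjusted p of 0.0251 at a ratio of 0.729 that did not reach the fold threshold (log2 difference -0.44, against -0.35 after quantile normalization, -0.26 after rescaling and -0.17 after length correction, with adjusted p of 0.109, 0.165 and 0.366), and Psmb8 had a ratio of 0.708 (adjusted p = 0.0639). The groups did not overlap for 5 members, H2-K1, H2-D1, Tap2, Psmb8 and Psmb10, against 29.7% of all genes. In the deposited values alone, the median difference of the members was -0.26 against -0.02 for all genes. After quantile normalization H2-K1 and H2-D1 stood at 0.00 and 0.01, so the sign of their difference rested on scaling. In this comparison 2 of 5 macrophage markers were lower, and 2 of 5 endothelial and 1 of 5 skeletal muscle markers higher, and their part in these differences was not tested.

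Relative to WT-veh, αERKO-DES differed in 1 of 10 called members (3.18% of all genes) and in 2 without overlap (21.0% of all genes), Psmb8 and Psmb9. Psmb8 was 1.59-fold lower (log2 difference -0.65, SE 0.18, adjusted p = 0.0404 in limma), and this call was lost under quantile normalization, rescaling without the 20 most abundant genes, length correction and no minimum on FPKM, and without WT-veh sample 1, 3 or 4 or αERKO-DES sample 2, 3 or 4 (adjusted p of 0.0605 to 0.132). The log2 difference itself was -0.65 to -0.54 under these settings and -0.70 to -0.58 without these samples. The share of Psmb8 in its pair was also lower, by -5.55 points (exact permutation p = 0.0286, adjusted 0.0476), a call lost without WT-veh sample 1 (-4.39 points) or any 1 of the αERKO-DES samples (-6.20 to -4.97 points). The other 9 members had log2 differences between -0.50 (Psmb9) and 0.05 (B2m). Between these groups 3 of 6 fibroblast, 3 of 4 adipose, 1 of 6 leukocyte and 1 of 5 macrophage markers were lower in αERKO-DES, and their part was not tested.

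Further class I heavy chain genes were higher in WT-DES as well, with 15 higher and 1 lower among 20 tested of 24 found (H2-Q9 was not matched in the table), against 28.9% of all genes higher and 23.9% lower. Of the 20, 3 had a mean above 1 FPKM in WT-DES alone and so had to be higher there to be tested, and 12 of the other 17 were higher and 1 lower. The most changed were Cd1d1, which presents lipids, at 3.35 ± 1.23 FPKM in WT-veh and 19.0 ± 6.67 in WT-DES (log2 difference 2.18, SE 0.33, adjusted p = 3.05e-05), and H2-Q6 (2.01) and H2-Q4 (1.83) of the Qa region. H2-Q2 was lower, at 9.49 ± 1.19 and 4.06 ± 1.47 FPKM (-1.09). H2-T9 (-0.04) and H2-Q10 (-0.37) did not pass the test, and H2-Q10 ranged from 5.11 to 54.7 FPKM within WT-veh. The median difference was 1.06 against -0.01 over all genes, and 13 to 16 were higher and 1 lower under the other scalings. Genes of this family share stretches of sequence, so reads can be split between copies. In αERKO-DES relative to αERKO-veh, 0 were higher and 1 lower, H2-Q10 (-2.22).

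Several endoplasmic reticulum chaperones were lower in WT-DES. Of 11 genes for loading chaperones, translocation and peptide trimming, 2 were higher and 5 lower in WT-DES (median difference -0.19), against 28.9% of all genes higher and 23.9% lower, and the split was 3 and 3 after quantile normalization, 4 and 4 after rescaling without the 20 most abundant genes and 1 and 5 after length correction. Hspa5, the chaperone BiP, fell from 596 ± 24.7 to 155 ± 12.7 FPKM (log2 difference -1.94), Calr, which encodes the chaperone calreticulin of the loading complex, from 699 ± 74.8 to 194 ± 13.5 FPKM (-1.84), and Sec61a1, a subunit of the protein translocation channel, from 306 ± 4.39 to 89.1 ± 7.59 FPKM (-1.77). All 3 were called under every scaling, at -0.99 to -1.99. The lectin chaperone gene Canx (-0.72) and the oxidoreductase gene Pdia3 (-1.40), named after their values were seen, were also lower, but Canx had no call after quantile normalization (-0.14) or rescaling (-0.29) and Pdia3 none after quantile normalization (-0.53). The trimming peptidases Lnpep (1.66) and Erap1 (0.78) were higher, Erap1 without a call after length correction (0.51), and the tapasin relative Tapbpl had a difference of 0.32 (adjusted p = 0.0575) but was called after quantile normalization (0.54) and rescaling (0.74). Among αERKO groups 0 of 11 were called after DES.

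The rest of the proteasome was described by its core and by its activators. Of 11 core subunits shared by both forms of the proteasome, 0 were higher and 8 lower in WT-DES, against 28.9% and 23.9% of all genes, from Psma3 (-0.36, not called) to Psma7 (-1.05), with a median of -0.83, and under the other scalings 0 were higher and 1 to 8 lower. After quantile normalization Psma3 was called (-0.75) and Psma7 was not (-0.28), and after rescaling without the 20 most abundant genes Psma3 stood at 0.01. Of 9 activators and assembly factors, 0 were higher and 6 lower in the deposited values (median difference -0.72), against 1 and 3 after quantile normalization, 2 and 0 after rescaling without the 20 most abundant genes, and 1 and 4 after length correction. The interferon-inducible activator subunits Psme1 (0.20, adjusted p = 0.192) and Psme2 (0.12, adjusted p = 0.424) did not pass the test in the deposited values. Psme1 was called higher after quantile normalization (0.80) and rescaling (0.63), and Psme2 after rescaling (0.48) and length correction (0.60).

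Regulators of class I transcription were split. Of 14 genes listed for factors and coactivators of class I transcription, 5 were higher and 1 lower in WT-DES (median difference 0.25), against 28.9% of all genes higher and 23.9% lower, and the split was 4 and 3 after quantile normalization, 7 and 0 after rescaling without the 20 most abundant genes and 3 and 0 after length correction. Ciita, the class II counterpart of Nlrc5, rose from 0.82 ± 0.25 to 11.8 ± 6.20 FPKM (log2 difference 2.69) and Irf1 from 23.1 ± 1.48 to 83.8 ± 28.3 FPKM (1.75). Rfxap, a subunit of the factor that binds the X box, was lower (-0.74), without a call after length correction or rescaling. Of 9 interferon-γ signalling genes, some of them also in the list of transcription factors, 6 were higher and 0 lower (median difference 0.73), or 5 to 7 higher and 0 lower under the other scalings. Ifng itself lay between 0.04 and 0.09 FPKM in WT-veh and between 0.39 and 4.18 FPKM in WT-DES (log2 difference 1.36). Ifng and Ciita were above 1 FPKM on average in WT-DES alone, so both had to be higher there to be tested. Among the other genes, 4 of 13 in the transcription list were higher and 1 lower. In the interferon-γ list 5 of the other 8 were higher and 0 lower. The receptor subunit Ifngr2 had a difference of 0.05. Of the receptors on lymphocytes that bind class I molecules, 6 were tested and all 6 had a mean above 1 FPKM in WT-DES alone, so their direction was set by the minimum on FPKM and no count is read from them. Klrd1, which encodes the NK cell receptor subunit CD94, was at 0.98 ± 0.57 FPKM in WT-veh and 10.4 ± 6.35 in WT-DES. In αERKO mice 0 genes of these 3 lists were called after DES.

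**Figure D5:**
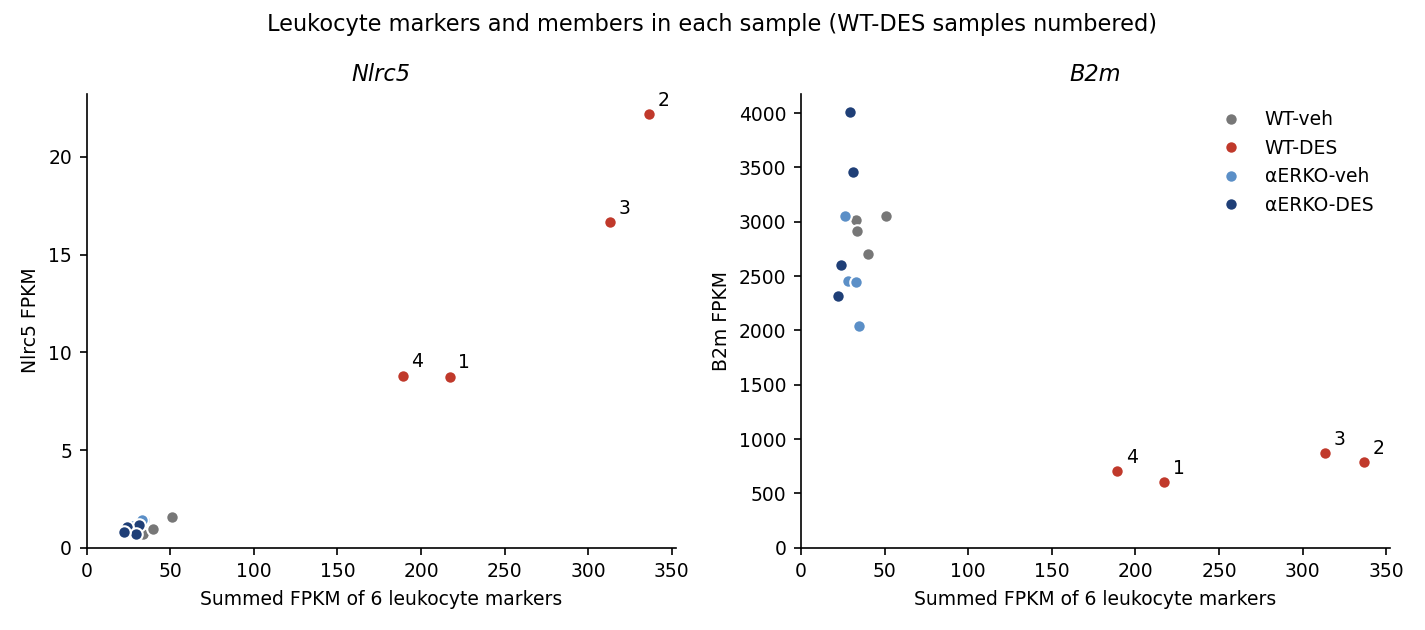
FPKM of Nlrc5 (left) and B2m (right) against the summed FPKM of 6 leukocyte markers in each of the 16 samples, coloured by group with WT-DES samples numbered. WT-DES samples 2 and 3 are highest in both leukocyte markers and Nlrc5, and B2m is below 900 FPKM in all 4 WT-DES samples.

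Cell type markers also differed between WT-DES and WT-veh, a comparison in which 28.9% of all genes were called higher and 23.9% lower. The 6 leukocyte markers Ptprc, Laptm5, Coro1a, Cd53, Itgb2 and Cd48 summed to 32.6 to 50.8 FPKM in WT-veh and to 217, 337, 313 and 189 FPKM in WT-DES samples 1 to 4, and in αERKO mice to 26.4 to 34.6 FPKM after vehicle and 22.4 to 31.3 FPKM after DES. WT-DES samples 2 and 3, which had the most leukocyte marker RNA, were also the highest WT-DES samples for all 10 members. All markers tested were higher in WT-DES for leukocytes (6 of 6), T cells (6 of 6), B cells (4 of 4), NK cells (3 of 3), macrophages (5 of 5), neutrophils (3 of 3), fibroblasts (6 of 6), endothelium (5 of 5) and adipose tissue (4 of 4), but all 4 B cell, 2 T cell, 2 NK cell, 1 neutrophil and 1 adipose marker were above 1 FPKM in WT-DES alone and had to be higher there to be tested. Epithelial markers were lower for 5 of 6, smooth muscle for 4 of 5, skeletal muscle for 2 of 5 and anterior prostate for 5 of 5, but under the other scalings 0 to 4 epithelial and 0 to 4 smooth muscle markers were lower, and 5 of 6 T cell markers after quantile normalization and 5 of 6 fibroblast markers after length correction were higher. No listed leukocyte, T, B, NK or macrophage marker was at 0 in every sample of any group. The part of these cells in the members' levels was not tested, and in whole tissue a different number of cells of a type and a different amount of RNA per cell cannot be told apart.

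Likeness of expression pattern was measured as the root mean square difference in log2(FPKM + 1), after centring each gene, from the mean pattern of the 10 members over the 16 samples. The closest of the 15829 tested genes outside the gene and marker lists were Gm7030 (0.0975; chr17:36109719-36129425) and Gm8909 (0.107; chr17:36164443-36168537), followed by BC035044 (0.113), Fam169b (0.113) and Gm18853 (0.12), against a median of 0.608 over all of them. BC035044, Fam169b and Gm18853 averaged 1.9, 1.3 and 1.5 FPKM in WT-DES but only 0.05 to 0.35 FPKM in the other groups. They were tested only because they were higher in WT-DES, so their likeness was partly set by the minimum on FPKM. Gm7030 measured 26.7 ± 4.62 FPKM in WT-veh and 49.9 ± 15.6 in WT-DES, and both it and Gm8909 share read-length windows with H2-D1. Among the members themselves Tap2 lay nearest the mean pattern (0.101) and B2m farthest (1.33).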

How the data were processed

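Expression was measured by RNA-seq in 16 seminal vesicle samples. The authors kept 126-nt paired-end HiSeq reads with a mean quality above 20, mapped them to mm10 with TopHat2 2.0.4 and deposited FPKM values made with Cufflinks 2.0.2, rounded to 2 decimals. The annotation behind the table and any further scaling are not given in the sources used here. Depth cannot be read from FPKM, so no counting interval is given. No 2 sample columns were identical.

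The 15988 genes whose mean exceeded 1 FPKM in any group were fitted on log2(FPKM + 1) with limma 3.58.1 in R 4.3.3, with a mean for each of the 4 groups and a variance trend. Fold changes on this scale understate those of low genes. A gene was called at a Benjamini-Hochberg adjusted p of at most 0.05 over all genes, group means differing at least 1.5-fold, and more than 1 FPKM on average in either group compared. For the genotype difference of the DES effect the log2 difference had to reach that of 1.5-fold. Ratios are of mean FPKM. Proteasome shares were compared by exact permutation tests. P-values set a difference against the spread between these samples, and whether the 4 WT-DES samples are independent is not known. The limma step was run on data simulated with independent noise and few changed genes, a simpler setting than that of these data.

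All 10 members were named in every comparison. From each further list at most 6 genes were named, the 3 with the largest and the 3 with the smallest difference in WT-DES relative to WT-veh. Canx and Pdia3 were named besides, after their values were seen. The members and lists were chosen with earlier results of these data known. The ratio of heavy chains to B2m was added after the values had been seen. Alternatives covered the pseudocount, the minimum FPKM, 4 other scalings, the set of samples fitted, variance trend, sample weights, a replicate block, both thresholds and leaving out each sample. Sequences are from RefSeq (GRCm38.p6), gene positions from GENCODE M21 (GRCm38).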

Additional observations from a re-analysis of the deposited data

Results flagged for a closer look

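The DES effect differed between WT and αERKO mice, by the genotype by treatment term of limma, for 7 of 10 members, against 56.4% of all genes. These were B2m (-2.28 on the log2 scale), Tap1 (2.05), Tap2 (0.85), Psmb8 (1.89), Psmb9 (1.98), Psmb10 (0.93) and Nlrc5 (3.01). The call of B2m was lost after quantile normalization. In Tap2 the highest WT-veh sample, at 30.9 FPKM, stood apart from the other 3, which lay between 25.2 and 26.1 FPKM. This was the only 1 of 52 groups of 4 samples in which a sample lay past Dixon's 95% critical value, and chance alone gives about 1 in 20.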

How the results depend on the processing

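The counts of members called for the DES effect in WT mice (7 to 10), the DES effect in αERKO mice (0), the genotype difference of these effects (7 to 10) and αERKO-DES relative to WT-DES (8 to 10) stayed within 1.5 times the main count under all alternatives run. The count in αERKO-veh relative to WT-veh was 1 with no fold threshold. The count in αERKO-DES relative to WT-veh fell from 1 to 0 with no minimum on FPKM, quantile normalization, rescaling without the 20 most abundant genes, length correction and an adjusted p of at most 0.01, and ranged from 0 to 1 when 1 sample was left out. A replicate block, which pairs samples by the number in their titles, also gave 0 there and changed no other count. The numbers are not shown to pair the samples, since same-numbered samples correlated at -0.21 to 0.28, so the block is given only here. The cause of these changes was not tested.

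The following log2 differences changed sign, and none was called in any comparison named here. For αERKO-veh relative to WT-veh, quantile normalization gave 0.0030 for H2-K1, 0.0091 for H2-D1, 0.25 for B2m and 0.079 for Tapbp. Length correction gave 0.11 for B2m and -0.13 for Nlrc5, rescaling gave 0.068 for Tap1, 0.010 for Tap2 and 0.077 for Tapbp, and sample weights gave 0.070 for Tap1 and 0.0016 for Tapbp. For αERKO-DES relative to αERKO-veh, quantile normalization gave -0.14 for H2-K1, -0.12 for H2-D1, -0.038 for B2m, -0.023 for Tap2, -0.14 for Tapbp and -0.0069 for Psmb10. Rescaling gave -0.062 for H2-K1, -0.063 for H2-D1, -0.095 for Tap1, -0.087 for Tap2, -0.12 for Tapbp and -0.063 for Psmb10. Length correction gave -0.0052 for H2-K1, -0.022 for Tapbp and -0.040 for Psmb10. Sample weights gave -0.0080 for H2-D1, -0.15 for Tap1, -0.0027 for Tap2, -0.049 for Tapbp and -0.016 for Psmb10. Leaving out 1 sample gave -0.016 to 0.18 for H2-K1, -0.0073 to 0.14 for H2-D1, -0.052 to 0.086 for Tap1, -0.035 to 0.053 for Tapbp and -0.027 to 0.14 for Psmb10. For αERKO-DES relative to WT-veh, sample weights gave -0.041 for B2m and quantile normalization 0.074 for Nlrc5, and leaving out 1 sample gave -0.084 to 0.18 for B2m, -0.15 to 0.013 for Tap1 and -0.17 to 0.024 for Nlrc5.

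With 1 sample left out, the proteasome shares in WT-DES relative to WT-veh differed by 43.2 to 50.8 points for Psmb8, 32.4 to 41.3 for Psmb9 and 23.1 to 28.6 for Psmb10, and those in αERKO-DES relative to WT-DES by -56.3 to -48.8, -43.0 to -34.0 and -30.1 to -24.6, with all 3 calls of the latter lost without any 1 αERKO-DES sample (adjusted exact permutation p = 0.0714). The DES effect on the shares in αERKO mice was -6.47 to -4.59 for Psmb8, -4.15 to -2.53 for Psmb9 and -1.07 to 0.14 for Psmb10. Relative to WT-veh, αERKO-DES differed by -6.63 to -4.39 for Psmb8 and -2.36 to -0.94 for Psmb10 (called without WT-veh sample 3), and αERKO-veh by -1.23 to 1.01 for Psmb8. Of these leave-outs 28 lost the call and 1 gained it, with fewer arrangements in the exact test. Depth is unknown, which limits low genes such as Nlrc5 in WT-veh. The sample weights stopped before their set tolerance.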
